A study of Caenorhabditis elegans with 14 samples.

Results

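The mitochondrial respiratory chain and ATP synthase of Caenorhabditis elegans were followed through 35 nuclear genes, out of 17138 genes measured on the array. The members are every nuclear gene whose symbol in the array's annotation begins with nuo-, cox-, atp-, sdha-, sdhb-, sdhd- or ucr-, together with gas-1, isp-1, cyc-1 and mev-1. The choice rests on names, but it was made with earlier results of these data known. They comprise 6 genes of complex I, 5 of complex II, 6 of complex III, 13 of complex IV and 5 of the ATP synthase. Of the 13 complex IV genes, 7 encode subunits and 6 encode assembly factors, so 29 of the 35 members are subunits. The members were read by 49 probe sets, and a gene's value is the mean of the log2 ratios of its probe sets. A single probe set served 23 genes, 2 served 10 genes, and 3 served cox-6A and atp-5. For 28 of the 49 the probe set ID marks that it can match several genes. No filter on low values was applied, so all 35 genes entered both comparisons.

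The respiratory chain of the inner mitochondrial membrane passes electrons from NADH (complex I) and succinate (complex II) through ubiquinone to complex III, and from there by cytochrome c to complex IV, which reduces oxygen. Proton pumping along the way drives the ATP synthase. Most subunits are nuclear genes whose products are imported and joined with subunits encoded in mitochondrial DNA. In C. elegans, mutations in several of these genes, among them gas-1, mev-1, isp-1 and nuo-6, are known for their effects on lifespan and on sensitivity to oxygen or oxidants.

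All worms were of the wild-type strain N2, kept at 15 °C on a lawn of food bacteria, and total RNA of whole animals was hybridised. For the first contrast, synchronised L4 larvae of 1 culture were divided between a sham group, held for 2.5 h at 26 °C without a field, and a microwave group, held for the same time at the same temperature in a continuous field, with 5 arrays in each. The absorbed power is given as 5 to 40 mW per kg, and the frequency as 1.8 GHz in 1 protocol and 1 GHz in another. Each of these arrays holds RNA pooled from 3 exposure runs. For the second contrast 2 arrays were labelled heat control and 2 heat shock. These 4 arrays carry the microwave protocol as their text, so the temperature, length and stage of the heat treatment are not given in the sources used here. Nothing states that the heat arrays came from separate cultures, so p-values there measure the spread between samples, which may be technical.

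The deposited values are linear ratios. A microwave value was read as relative to its equally numbered sham array, and a heat value as the ratio to the mean of both heat control arrays, because every sham value is 1 and the heat control columns average to 1. Levels, detection and signal over background were therefore unknown, the genes cannot be ranked by abundance, and the number of arrays limits the precision. The labels of the heat arrays went against their content. The heat-inducible chaperone genes hsp-16.2 and hsp-70, which rise in heated worms, had log2 fold changes of -4.86 ± 0.17 and -3.34 ± 0.17, the latter a 10.1-fold lower value, in the arrays labelled heat shock (limma adjusted p = 0.00233 for both). All directions in that contrast are given by the labels alone and would all turn if the labels were exchanged; "rose" means higher, and "fell" lower, on the heat shock side of the labels. Microwave pair 1 stood apart from the other 4 pairs. Its log2 ratios had an SD of 0.387 over probe sets, against 0.101 to 0.164. Its mean 3′ minus 5′ difference of control transcripts, a measure of RNA integrity, was -0.74 in log2 units, against -0.13 to 0.035. Single transcripts of pair 1 ranged from -1.891 for catalase to 0.031 for gly14. In the 4 heat arrays the mean of that difference over 5 transcripts lay between -0.02 and 0.055, but single transcripts differed. In the arrays labelled heat shock actin stood at 0.217 and 0.333, and gly14 at -0.334 and -0.367. As ratios, these values are relative to the sham array or to the mean of the heat controls, so they give no integrity of a single array.

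In the heat contrast the 35 genes did not move as a block. A copper chaperone and a complex I subunit marked the ends of the range: cox-17 was 4.58-fold higher and nuo-4 was 4.95-fold lower in the arrays labelled heat shock. In all, 6 members rose, 9 fell and 20 did not pass the test (limma, adjusted p under 0.05 over all 17138 genes). That is 42.9% of the members, where 30.0% of all genes passed, 15.2% higher and 14.8% lower. The median log2 fold change of the members was -0.04, with a range from -2.31 to 2.19 and an SD between genes of 0.75. Over all genes the median was 0.13 and the SD 0.70. The groups did not overlap for 30 of the 35 members, or 85.7%, against 72.9% of all genes. Of the 35, 14 lay wholly higher and 16 wholly lower, where 45.9% and 27.1% of all genes did. An unadjusted p under 0.05 was reached by 23 members, against 45.1% of all genes. With 2 arrays against 2, an exact permutation test of a single gene cannot go below p = 0.333, so the calls rest on variances shared across genes. Without heat shock replicate 1 no member and no other gene passed (limma, with 5104 genes at an unadjusted p under 0.05). Without heat shock replicate 2 most called members did not pass either, and nuo-4 and cox-17 stood at -2.39 and 2.21. Such fits leave 1 array in a group. Without heat control replicate 1 the members' median log2 fold change was -0.059, and without heat control replicate 2 it was 0.021. In both of these settings cox-18, cox-5B, atp-2 and atp-4 did not pass.

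**Figure D1:**
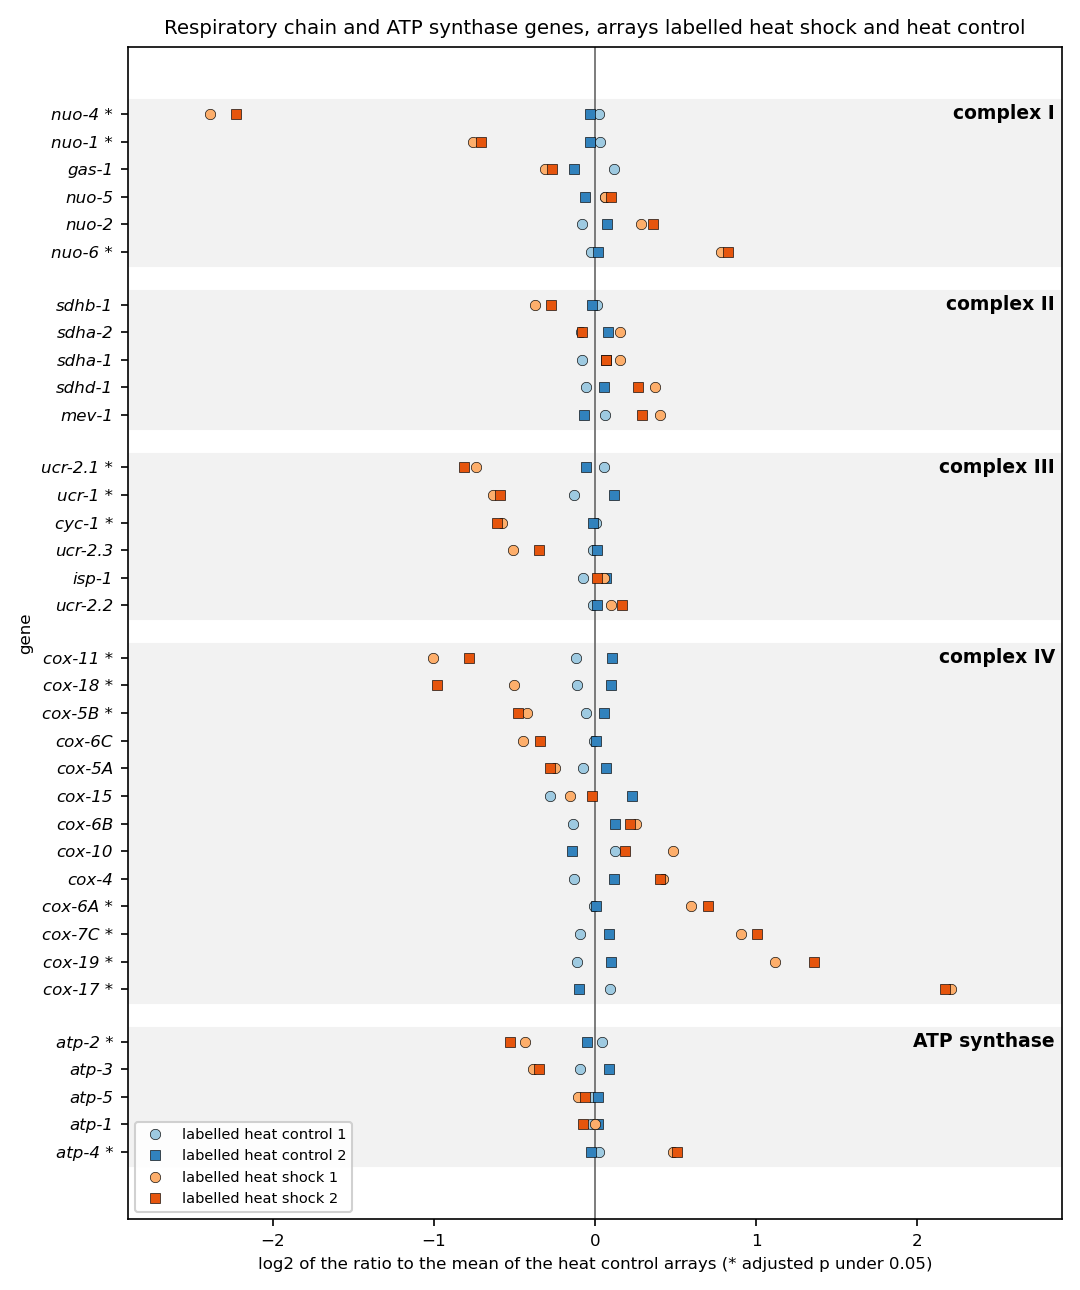
Log2 ratio to the mean of the heat control arrays (x axis) of each respiratory chain and ATP synthase gene (y axis, grouped by complex and ordered by fold change) in the 4 heat arrays, 1 point per array, with an asterisk where the adjusted p was under 0.05. Both arrays labelled heat shock lie close together for most genes, from -2.31 on average for nuo-4 to 2.19 for cox-17. In complex II the log2 fold changes lie between -0.32 and 0.35.

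Complex I takes electrons from NADH, and 2 of its 6 members fell, 1 rose and 3 did not pass. By comparison, 14.8% of all genes fell and 15.2% rose. For nuo-4, an accessory subunit of the membrane arm, the ratios were 0.191 and 0.213 in the arrays labelled heat shock and 1.02 and 0.98 in the controls. The groups were far apart, and the log2 fold change was -2.31 ± 0.12 (SE, n = 2 per group; limma adjusted p = 0.00233). Its 2 probe sets gave -2.48 and -2.14, and both can match several genes. For nuo-1, the flavoprotein that accepts electrons from NADH, the ratios were 0.593 and 0.612 against 1.02 and 0.978, a log2 fold change of -0.73 ± 0.11 (adjusted p = 0.0114). In the other direction, nuo-6, an accessory subunit, stood at 1.72 and 1.78 against 0.985 and 1.01. It lay wholly higher, as 45.9% of all genes did. Its log2 fold change was 0.81 ± 0.11 (adjusted p = 0.00875). The core subunits gas-1, nuo-2 and nuo-5 had log2 fold changes of -0.28 ± 0.14, 0.33 ± 0.12 and 0.08 ± 0.12, and none of these 3 passed. Within complex I alone the fold changes thus spanned -2.31 to 0.81, with an SD between genes of 1.09.

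Complex II, succinate dehydrogenase, also belongs to the citric acid cycle. None of its 5 members passed with limma, where 30.0% of all genes did. An unadjusted p under 0.05 was reached by 3, where 45.1% of all genes reached it. The median size of its log2 fold changes, regardless of sign, was 0.32, against 0.35 over all genes. The range was narrow, from -0.32 for sdhb-1, the iron-sulphur subunit, to 0.35 for mev-1, a membrane anchor subunit with a cytochrome b. The flavoprotein subunit has 2 genes. For sdha-1 the ratios were 1.11 and 1.05 in the arrays labelled heat shock and 0.947 and 1.05 in the controls. For sdha-2 they were 1.12 and 0.946 against 0.943 and 1.06, so both genes overlapped with their controls. The 95% intervals of their log2 fold changes were -0.20 to 0.43 for sdha-1 and -0.33 to 0.41 for sdha-2. The other anchor gene, sdhd-1, stood at 0.32 ± 0.12 (adjusted p = 0.102).

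Complex III passes electrons from ubiquinol to cytochrome c, and 3 of its 6 members fell, 0 rose and 3 did not pass. Over all genes 14.8% fell and 15.2% rose. Only genes that the naming rule finds are counted here, and further chain subunits under other names, described below, mostly rose. The median log2 fold change of the 6 members was -0.51. For ucr-2.1, one of several genes for core protein II, the ratios were 0.599 and 0.57 against 1.04 and 0.962 in the controls (log2 fold change -0.77 ± 0.12, adjusted p = 0.0109). For ucr-1, which encodes core protein I, they were 0.646 and 0.666 against 0.913 and 1.09 (-0.60 ± 0.14, adjusted p = 0.0307). For cyc-1, the cytochrome c1 subunit, they were 0.671 and 0.658 against 1.01 and 0.994 (-0.59 ± 0.11, adjusted p = 0.0192). All 3 lay wholly below their controls, as 27.1% of all genes did. With the replicate number as a block in the limma fit, cyc-1 (adjusted p = 0.0517) and ucr-1 (adjusted p = 0.0571) did not pass. The related ucr genes differed in their values. At ucr-2.3 the ratios were 0.703 and 0.786 against 0.991 and 1.01, and the log2 fold change of -0.43 ± 0.12 just missed the threshold (adjusted p = 0.0542). At ucr-2.2 they were 1.07 and 1.12 against 0.992 and 1.01, with a log2 fold change of 0.13 ± 0.11 (adjusted p = 0.393). The difference between these genes was not tested. The Rieske iron-sulphur protein gene isp-1 stood at 0.03 ± 0.12, and its 2 probe sets differed in sign, at -0.14 and 0.21.

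Complex IV, cytochrome c oxidase, had 4 members that rose, 3 that fell and 6 that did not pass. Of all genes 15.2% rose and 14.8% fell. The 2 largest rises in the complex were in assembly factors that act in the intermembrane space. For cox-17, the copper chaperone of the complex, the ratios were 4.63 and 4.52 against 1.07 and 0.933, and the log2 fold change was 2.19 ± 0.13 (adjusted p = 0.00233). For cox-19, another small factor linked to copper delivery, they were 2.17 and 2.57 against 0.927 and 1.07 (1.24 ± 0.15, adjusted p = 0.00595). In both genes each array labelled heat shock was more than 2-fold above each control array. The other factors that passed, cox-11 and cox-18, fell. For cox-11, which is needed to place copper in the catalytic subunit, the ratios were 0.498 and 0.581 against 0.922 and 1.08 (-0.89 ± 0.15, adjusted p = 0.0136). For cox-18, which helps to insert a core subunit into the membrane, they were 0.707 and 0.506 against 0.927 and 1.07 (-0.74 ± 0.20, adjusted p = 0.0466). The heme A pathway genes cox-10 and cox-15 did not pass, at 0.34 ± 0.17 and -0.06 ± 0.20. Among the 6 assembly factors 2 thus rose, 2 fell and 2 did not pass.

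The 7 structural subunits of complex IV, which surround the catalytic core, were also mixed. For cox-7C the ratios were 1.87 and 2.01 against 0.938 and 1.06 in the controls (0.96 ± 0.13, adjusted p = 0.00774), with a single probe set that can match several genes. For cox-6A they were 1.51 and 1.63 against 0.995 and 1.0 (0.65 ± 0.12, adjusted p = 0.0165), and its 3 probe sets can all match several genes. By contrast, cox-5B fell, with ratios of 0.748 and 0.718 against 0.962 and 1.04 (-0.45 ± 0.12, adjusted p = 0.0443). Of the remaining 4, cox-4 stood at 0.42 ± 0.14 and cox-6B at 0.25 ± 0.14, while cox-5A stood at -0.26 ± 0.12 and cox-6C at -0.39 ± 0.12. All 7 had groups that did not overlap, 4 higher and 3 lower, as 72.9% of all genes did. Subunits of the same enzyme thus passed the test in both directions.

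In the ATP synthase 1 of 5 members rose, 1 fell and 3 did not pass, where 15.2% of all genes rose and 14.8% fell. For atp-2, the catalytic beta subunit, the ratios were 0.74 and 0.693 against 1.03 and 0.968 (-0.48 ± 0.12, adjusted p = 0.0377). For its partner atp-1, the alpha subunit, they were 0.999 and 0.95 against 0.985 and 1.01, which overlap. The stalk subunit gene atp-3 stood at -0.36 ± 0.13 (adjusted p = 0.0831) and atp-5 at -0.08 ± 0.11. A further stalk gene, atp-4, rose, with ratios of 1.4 and 1.42 against 1.02 and 0.981 (0.50 ± 0.11, adjusted p = 0.0306). Over all probe sets, both heat shock medians lay 0.10 above 0 on the log2 scale. With each array centred on its median, atp-4 did not pass (adjusted p = 0.0594), and ucr-2.3, cox-6C and atp-3 fell, which makes 5 members higher and 12 lower, where 9.88% of all genes were higher and 16.9% lower. Over all genes that scaling moved the split of calls from 50.7% higher and 49.3% lower to 36.9% higher and 63.1% lower.

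Lists of further chain subunits and of genes around the chain differed from each other in direction. The lists come from background knowledge and were chosen with earlier results of these data known. Of 31 measured subunits of the chain and the ATP synthase that carry other names (38 were listed, and 5 of these are already among the 35 members), 19 rose, 4 fell and 8 did not pass, with a median log2 fold change of 0.58. Among them nduc-2 rose by 1.80 ± 0.17, ndua-13 by 1.33 ± 0.15 and F45H10.2 by 1.33 ± 0.12, while the complex I subunit ndub-10 fell, at -1.22 ± 0.13. The shares were 61.3% higher and 12.9% lower, where 15.2% and 14.8% of all genes passed. Of 20 genes of the citric acid cycle and pyruvate dehydrogenase, which feed electrons to the chain, 15 fell, 0 rose and 5 did not pass, with a median of -0.92. The isocitrate dehydrogenase genes idhg-2 and idh-2 fell, at -2.67 ± 0.30 and -2.37 ± 0.17, as did the succinyl-CoA ligase genes sucg-1 and suca-1, at -1.90 ± 0.12 and -1.50 ± 0.14. Of 17 genes for cytochrome c, ubiquinone synthesis and other factors, 7 fell, 1 rose and 9 did not pass (median -0.56). The cytochrome c gene cyc-2.2 fell, at -1.93 ± 0.30. The other cytochrome c gene, cyc-2.1, named after its value was seen, stood at 0.04 ± 0.15 (limma adjusted p = 0.841). The membrane insertase gene oxa-1 was 2.47-fold lower, and coq-6, of ubiquinone synthesis, was 2.3-fold lower. The single riser was mai-2, a homologue of the inhibitor of the ATP synthase, at 1.48 ± 0.12. The other homologue of that inhibitor, mai-1, named after its value was seen, fell, at -0.88 ± 0.17 (adjusted p = 0.0216). Among 4 adenine nucleotide carrier genes, ant-1.4 rose, at 1.31 ± 0.32, and ant-1.1 fell, at -0.62 ± 0.12. Genes encoded in mitochondrial DNA were not analysed here.

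**Figure D2:**
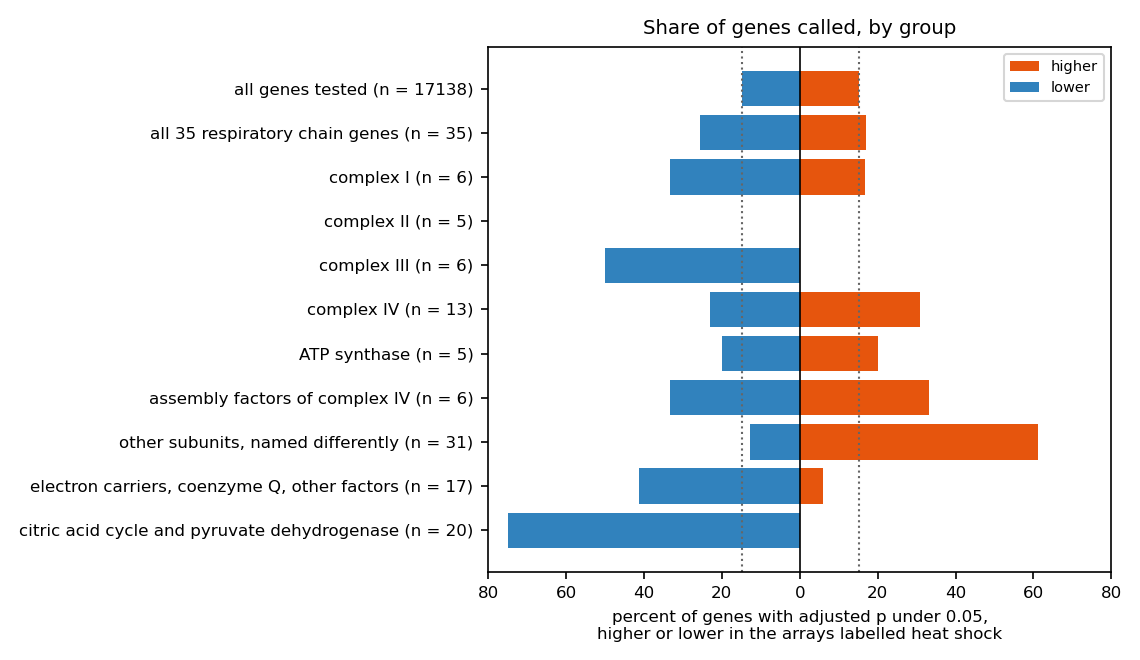
Percent of genes in each group that passed an adjusted p of 0.05 (x axis), higher to the right and lower to the left in the arrays labelled heat shock, with dotted lines at the shares over all 17138 genes. Respiratory chain genes show bars on both sides, 17.1% higher and 25.7% lower, complex II shows none, and the citric acid cycle bar, 75.0%, lies wholly on the lower side.

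Markers of tissues moved in the same arrays, in which 15.2% of all genes rose and 14.8% fell. Of 12 body wall muscle markers 9 fell and 1 rose (median log2 fold change -0.87), of 12 sperm markers 12 rose and 0 fell (median 1.48), and of 11 intestine markers 5 fell and 0 rose (median -0.40). Of 15 oocyte and germ line markers 2 fell and 0 rose (median 0.03), of 12 neuron markers 3 rose and 2 fell (median 0.10), and of 7 hypodermis markers 1 rose and 3 fell (median -0.71). In these whole worms fewer cells of a type and less RNA per cell cannot be told apart. By array, the median log2 ratio of the muscle markers was -0.85 and -0.83 in the arrays labelled heat shock and 0.01 and -0.01 in the controls; that of the sperm markers was 1.49 and 1.43 against -0.21 and 0.18. The control arrays themselves stood apart in other lists. The oocyte and germ line median was -0.69 in heat control replicate 1 and 0.465 in replicate 2, with -0.09 and -0.12 in the arrays labelled heat shock. For the hypodermis markers the control medians were 0.25 and -0.30, and for the intestine markers -0.23 and 0.20, while the heat shock medians of both lists lay below these. Ratios give no level, so no marker can be said to be absent. The part of these tissues in the respiratory chain values was not tested.

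Gene span, the distance from a gene's first to its last base including introns, moved with the values as well. The 6 members that rose had a median span of 970 bp, and the 9 that fell had a median of 2310 bp. Of 11 members under 1000 bp 4 rose and 1 fell, and of 13 members of at least 2000 but under 4000 bp 0 rose and 6 fell. Over all genes of the same spans, 31.5% rose and 6.08% fell in the shorter class, and 10.9% rose and 19.7% fell in the longer. Across the 35 members Spearman's rho between span and log2 fold change was -0.43, and across 17085 genes it was -0.18; genes are not independent replicates, and the arrays are shared. With a smooth trend on span removed from each array, 5 members were higher and 8 lower; of all genes with a span 30.3% then passed, 16.4% higher and 13.9% lower. In that setting cox-18, atp-2 and atp-4 did not pass, cox-6C did (adjusted p = 0.0254), and nuo-4 and cox-17 stood at -2.19 and 2.08. The median of the 31 further subunits was 0.53 and that of the citric acid cycle genes -0.83 in the same setting. The 12 sperm markers, which span 324 to 384 bp, then had a median of 1.155, and 8 of them rose.

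**Figure D3:**
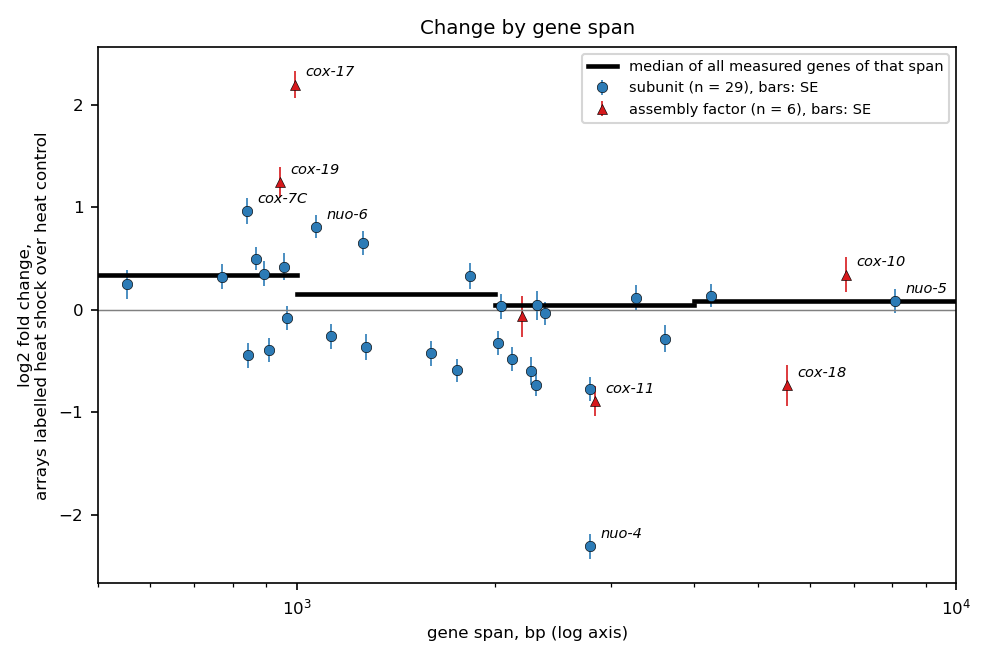
Log2 fold change of the arrays labelled heat shock over heat control (y axis, bars are the SE, n = 2 per group) against gene span in bp (x axis, log scale) for the 35 members, with the median of all measured genes in 4 span classes as black lines (the outer lines stand for all genes under 1000 bp and of 4000 bp or more). Members under 1000 bp lie between -0.45 and 2.19 and those of at least 2000 but under 4000 bp between -2.31 and 0.12, and cox-17 at 2.19 and nuo-4 at -2.31 lie farthest from the median of their class.

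The microwave contrast asks whether the field altered transcript levels at a matched temperature. No respiratory chain gene passed the test, with 0 of 35 members and 0.0% of all genes at an adjusted p under 0.05 (limma). At an unadjusted p under 0.05 there were 3 members, or 8.57%, all higher, against 3.33% of all genes. The changes were small throughout: the mean log2 ratio of a member lay between -0.07 and 0.28, with a median of 0.06 against -0.003 over all genes. The 95% interval of the fold change stayed within 1.5-fold of no change for 35 of 35 members, and for 98.4% of all genes. The widest bound among the members, 1.46-fold, was that of atp-1. An exact sign-flip test of 5 pairs cannot go below p = 0.0625.

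**Figure D4:**
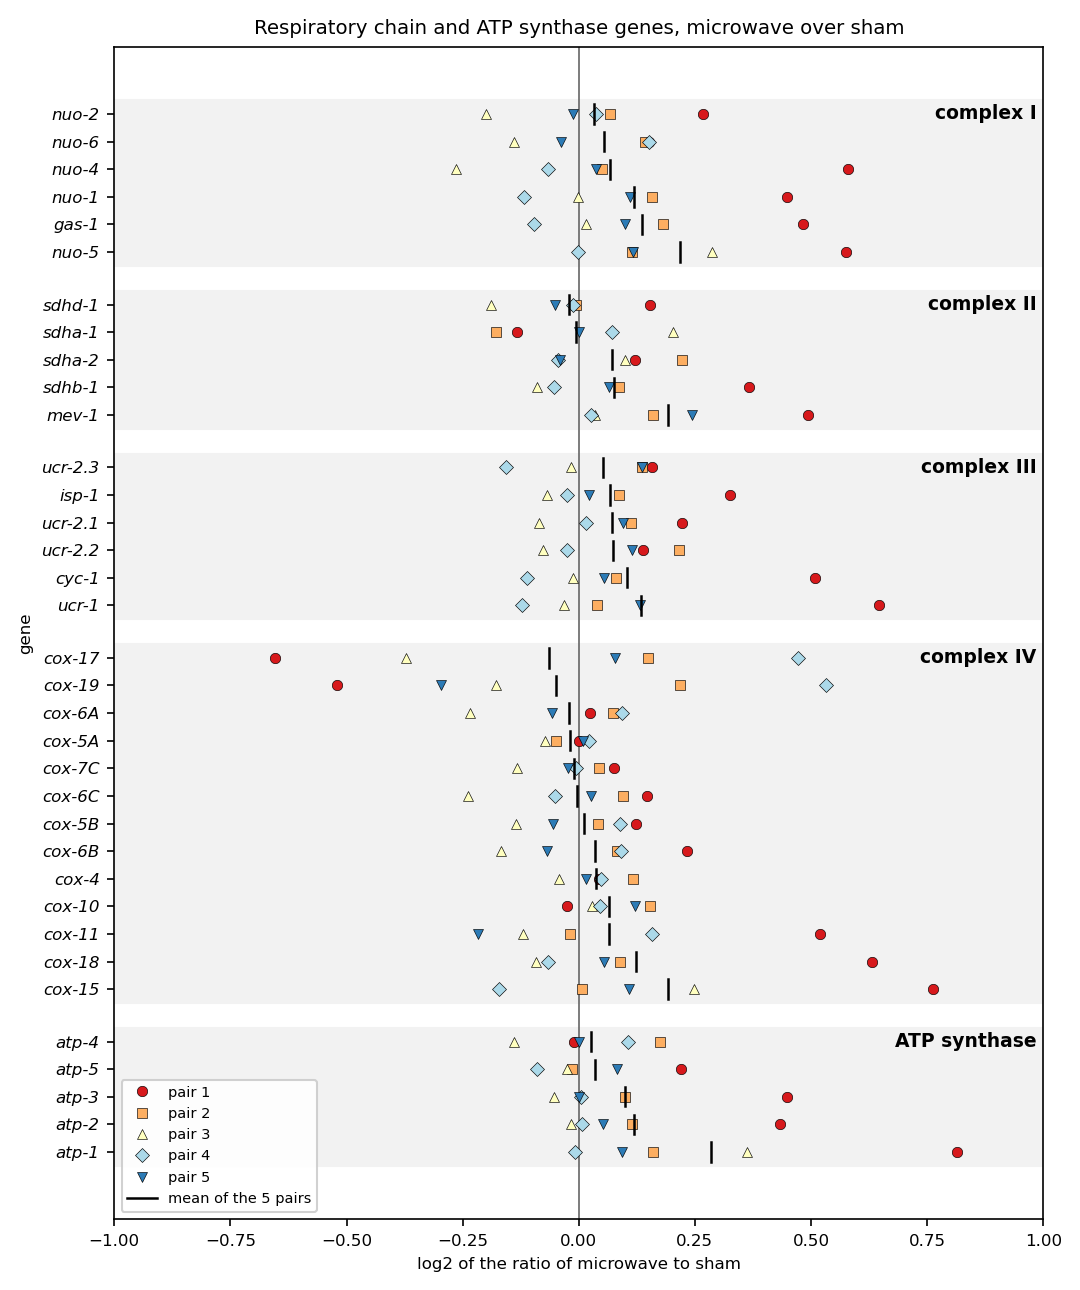
Log2 ratio of microwave to sham (x axis) in each of the 5 pairs, 1 symbol per pair, for each respiratory chain and ATP synthase gene (y axis, grouped by complex and ordered by mean), with a vertical tick at the mean. Means lie between -0.07 and 0.28, pair 1 gives the highest value of many genes, and cox-17 and cox-19 spread widest.

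The direction of the members differed between pairs. In pair 1, 29 of 35 members had a ratio above 1, in pair 2 there were 30, in pair 3 there were 8, in pair 4 there were 17 and in pair 5 there were 23. Over all genes the shares above 1 were 47.9%, 52.9%, 42.8%, 53.0% and 47.7%. The median log2 ratio of the members was 0.22 in pair 1, 0.095 in pair 2, -0.07 in pair 3, -0.002 in pair 4 and 0.04 in pair 5. Without pair 1, in which the 3′ minus 5′ difference of control transcripts was lowest, the median over the members fell to 0.02, and 23 of 35 genes had a mean above 0, where 27 did with all pairs; of all genes 45.7% did without pair 1 and 48.6% with it. In pair 1 the median log2 ratio of all genes under 1000 bp was -0.155 and that of genes of 4000 bp or more was 0.06. Members of those spans stood at 0.12 and 0.36. In the same pair 15 of 15 oocyte and germ line markers were above 1, with a median log2 ratio of 0.60, and 0 of 12 sperm markers were, with a median of -0.24. The citric acid cycle genes had a median of 0.54 in pair 1 and a mean over pairs of 0.18 in the median gene, which was 0.08 without pair 1; 0 of 20 passed (limma, 5 at an unadjusted p under 0.05). The part of RNA integrity and of tissue makeup in the member values was not tested.

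The 2 genes with the largest moderated t of each complex, among them the 3 with an unadjusted p under 0.05, show the size of the spread. The complex I core subunit gene nuo-5 had ratios of 1.49, 1.08, 1.22, 0.999 and 1.08 in pairs 1 to 5. That is above 1 in 4 of 5 pairs, with a mean log2 ratio of 0.22 ± 0.09 (SE, n = 5 pairs; limma adjusted p = 0.872). For gas-1, another core subunit, the ratios were 1.4, 1.13, 1.01, 0.936 and 1.07, with a mean of 0.14 ± 0.08. In complex II, mev-1 was above 1 in 5 of 5 pairs, at 1.41, 1.12, 1.02, 1.02 and 1.18 (mean 0.19 ± 0.08, adjusted p = 0.872). Of the 35 members only mev-1 had every pair above 1, a share near the 2.6% of all genes. For sdha-2 the ratios were 1.09, 1.17, 1.07, 0.97 and 0.972, on both sides of 1. In the ATP synthase, atp-1 had 1.76, 1.12, 1.29, 0.994 and 1.07 (mean 0.28 ± 0.11, adjusted p = 0.872), and the value of 1.76 in pair 1 was the highest of any member in any pair. For its partner atp-2 the ratios were 1.35, 1.08, 0.988, 1.0 and 1.04, and the mean was 0.12 ± 0.07. Without pair 1 the means were 0.13 for nuo-5, 0.05 for gas-1, 0.12 for mev-1, 0.06 for sdha-2, 0.15 for atp-1 and 0.04 for atp-2.

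In complex III the mean log2 ratios of all 6 members lay between 0.05 and 0.13. For ucr-2.1 the ratios were 1.17, 1.08, 0.942, 1.01 and 1.07, and for ucr-2.2 they were 1.1, 1.16, 0.948, 0.983 and 1.08. Both means were 0.07 ± 0.06, although in the heat contrast ucr-2.1 fell and ucr-2.2 did not pass. The 6 complex III genes were above 1 in pairs 1, 2 and 5 without exception, and in pair 3 none was. Other members had a similar pattern. Of all 35, 29, 30 and 23 were above 1 in pairs 1, 2 and 5, and 8 were in pair 3. The 6 complex I genes were all above 1 in pairs 1 and 2.

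Complex IV held the genes with the widest scatter between pairs. The means of its 7 structural subunits lay between -0.02 and 0.04, while the assembly factors ranged from -0.07 to 0.19. For cox-15, of heme A synthesis, the ratios were 1.7, 1.0, 1.19, 0.888 and 1.08 (mean 0.19 ± 0.12), and for cox-10 they were 0.982, 1.11, 1.02, 1.03 and 1.09 (0.06 ± 0.05). The copper factors cox-17 and cox-19, described here because of their spread and so chosen after their values were seen, had the widest range over the pairs. The ratios of cox-17 were 0.636, 1.11, 0.772, 1.39 and 1.06, and those of cox-19 were 0.697, 1.16, 0.884, 1.45 and 0.814. Both were lowest in pair 1, where most members were above 1, and highest in pair 4. The SD over the 5 pairs was 0.45 for cox-17 and 0.42 for cox-19, against a median of 0.156 over the members and 0.145 over all genes. Their means were -0.07 ± 0.15 and -0.05 ± 0.14, and without pair 1 they were 0.08 and 0.07, on the other side of 0. The 95% intervals allow a change of cox-17 from 0.75-fold to 1.22-fold and of cox-19 from 0.768-fold to 1.22-fold.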

How the data were processed

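Total RNA of 14 samples was hybridised to single-colour Affymetrix arrays, grouped by the titles in the labels. The authors' deposited values are linear ratios; GCOS and MAS 5 were used for reading and normalisation, per the labels' protocols. RMA is named as well, per the submitters' processing notes. Which of these made the ratios, and the genome build, are not given in the sources used here. Baselines were inferred from the values: 0 sham values differ from 1, and the heat control columns sum to 2 within 0.001.

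After 77 control probe sets were removed, 22548 remained. Of these 20766 had 1 gene in the platform annotation, 887 had several and 895 were not listed. Ratios were turned to log2 and averaged per gene. Current symbols and gene spans came from the RefSeq table of WBcel235, which matched 17085 of 17138 genes. Fits used limma 3.58.1 in R 4.3.3 with eBayes, two-sided p-values and Benjamini-Hochberg adjustment over all genes at 0.05. Microwave was tested as the mean of 5 log2 pair ratios against 0, heat as 2 arrays against 2 without a block. Named genes were, per complex, up to 3 called genes in each direction for heat and the 2 of largest t for microwave. Members, lists and tests were chosen with earlier results of these data known. The fits were also run on simulated data of independent genes, which cannot show how well the calls hold in these arrays. Alternatives were centring, quantile normalisation, other probe sets, robust variances, array weights, a block, a span trend removed by lowess, and leaving out arrays. Scan dates were not used here, so no batch was examined. Array number, not sequencing depth, limits precision, and 0 columns of other samples were present.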

Additional observations from a re-analysis of the deposited data

Results flagged for a closer look

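Of 43 sets of 5 pair values examined in the microwave contrast, 35 of them single genes, 3 held a pair far from the others by Dixon's test, and chance alone gives such a mark in about 1 of 20 sets. All 3 concern pair 1. For cox-18, pair 1 gave a log2 ratio of 0.63, while pairs 2 to 5 ranged from -0.09 to 0.09; without pair 1 its mean was -0.004. Across probe sets, pair 1 had an SD of log2 ratios of 0.387, with 0.164 the next highest. The mean 3′ minus 5′ difference of 5 control transcripts was -0.74 in pair 1, with -0.13 the next lowest.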

How the results depend on the processing

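In the microwave contrast limma called 0 genes in every setting tried, and the median of the respiratory chain genes stayed between 0.024 and 0.102. In the heat contrast that median was -0.038 as reported, -0.14 with each array centred, -0.216 once probe sets open to several genes were dropped (20 members), 0.025 with the span trend removed, and -0.063 to 0.021 when 1 array was left out. The calls over all genes numbered 5133 as reported, and 0 to 5064 with 1 array left out; tested per probe set they numbered 6774. Members called higher then ranged from 0 to 6 and members called lower from 0 to 6. The labels do not say that equal numbers of heat arrays mark a shared culture or day, so the main fit had no block. Same-numbered heat arrays did not deviate together (r = -0.06), but with 2 arrays per group this cannot settle a pairing. With the replicate block 3299 genes were called (1383 higher, 1916 lower), and 5 members were higher and 4 lower. In that setting cyc-1, ucr-1, cox-18, cox-5B, atp-2 and atp-4 did not pass. No unpaired microwave fit was possible because the ratio already holds the pair. No called member changed sign in any setting. Members near 0 did. Centring gave nuo-5 -0.018, sdha-2 -0.061 and isp-1 -0.068 in the heat contrast. Removing the span trend gave cox-15 0.025, cox-6B -0.017 and atp-1 0.063. Leaving out 1 heat array gave -0.078 to 0.161 for sdha-2, -0.036 to 0.104 for isp-1 and -0.318 to 0.189 for cox-15. In the microwave contrast quantile normalisation gave cox-17 0.062 and cox-19 0.068, and array weights gave 0.062 and 0.034. Leaving out 1 pair gave -0.20 to 0.081 for cox-17, -0.195 to 0.069 for cox-19 and -0.004 to 0.18 for cox-18. The causes were not tested, except that leaving out arrays leaves fewer samples. The ratios hold no signal over background, so its part in these values is unknown.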
